A study of Mus musculus with 72 samples.

Results

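Voltage-gated ion channels set the threshold, shape and spread of electrical signals in neurons, and 33 genes that encode their pore-forming and auxiliary subunits were followed here through experimental stroke in the mouse brain. They were chosen by gene symbol with earlier results of these data known. Shares over all genes are therefore set beside their counts as a description, not as a test of the set. All 33 were found once each among the 35275 Ensembl gene identifiers of the deposited count table. They comprise 4 sodium channel alpha and 3 sodium channel beta subunits, 8 calcium channel alpha and 2 calcium channel beta subunits, 14 voltage-gated potassium channel genes including 1 auxiliary beta subunit, 1 large-conductance calcium-activated potassium channel gene and 1 hyperpolarization-activated channel gene. All 33 passed the filter on low counts, and the lowest count of a member in any library was 145, so none entered the test through a single group. Of the members 21 overlap another annotated gene, 20 of them one on the opposite strand, and no source used here says whether counting used strand, so reads of such pairs may not be separated.

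The 72 mRNA libraries were made from a mid-coronal piece of the cerebrum of C57BL/6 animals, 7 months old. The middle cerebral artery on the sampled side had been occluded for 1 h (MCAO) or the operation had been a sham. Besides sham, tissue was collected at the end of the occlusion ("ischemia alone") or 3, 12, 24 or 72 h into reperfusion. At every stage there were 4 diets: unrestricted feeding (AL), a 24 h fast on alternate days (EOD), and daily fasting of 12 h (IF12) or 16 h (IF16) for 4 months. Each of the 24 groups had 3 libraries. The labels do not name separate animals for them, so every p-value below measures the spread between these libraries, part of which may be technical. Occlusion of this artery injures mainly the striatum and the overlying cortex, and a whole section mixes injured with spared tissue.

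Sodium channels carry the upstroke of the action potential and are concentrated at the axon initial segment. Calcium channels couple depolarization to transmitter release, dendritic signalling and gene expression, and potassium channels repolarize the membrane and set firing frequency. Auxiliary beta subunits adjust the surface number and gating of the pores. In a section of tissue, fewer neurons, less RNA per neuron and a different share of brain regions in the piece cannot be told apart.

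Library totals ran from 16735707 to 24763161 counts. All 12 general neuron markers were present in every library. Their summed level ran from 7897 to 10212 counts scaled to library size (CPM) in sham, 8870 to 9624 after ischemia alone, 8044 to 10676 at 3 h, 6197 to 9496 at 12 h, 5040 to 8434 at 24 h and 4843 to 9605 at 72 h. The 9 markers of medium spiny neurons, the projection neurons of the striatum, summed to between 843 and 3566 CPM in sham. At 24 h these markers summed to between 269 and 958 CPM, and none was at 0 in any library. In sham, 10 thalamus markers summed to between 115 and 677 CPM and 5 choroid plexus markers to between 32.7 and 3617 CPM. In AL after ischemia alone the median log2 fold change against sham was -1.72 for the medium spiny neuron markers. It was 2.04 for 10 hippocampus markers, with 0 of either list called. How far the regions held by a piece entered the channel values was not tested. Replicate 2 of EOD at 72 h and replicate 3 of EOD at 12 h stood farthest from the other libraries of their groups.

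In sham brains the members spanned a wide range of levels when counts were expressed per kilobase. With the gene length behind the deposited FPKM values, Hcn2, a hyperpolarization-activated channel that paces rhythmic firing, stood highest at 111 ± 22.6 CPM per kilobase (SD, n = 12). Next in order came Cacna1a at 96.1 ± 10.5, Scn2b at 89.9 ± 5.67, Scn4b at 86.5 ± 30.5 and Kcnc1 at 83.9 ± 8.6 CPM per kilobase. Neighbours in this order differed by less than the larger SD of the pair, though not always by less than the smaller. Kcnb2, a delayed rectifier of the Kv family, was lowest at 1.88 ± 0.421 CPM per kilobase. The order depended on the length used. Per kilobase of the longest annotated transcript, Hcn2 was again highest at 109 ± 22.3 and Kcnb2 lowest at 1.19 ± 0.267, but Cacna1a moved to 28.3 ± 3.09 and Kcna1 from 21.8 ± 2.82 to 48.6 ± 6.26 CPM per kilobase.

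Across stages, compared with sham and averaged over the 4 regimens with equal weight, the channel genes that changed after reperfusion were lower with 1 exception, and 23 of the 33 were lower at 24 h. Calls required an edgeR adjusted p below 0.05 (Benjamini-Hochberg) from its quasi-likelihood test over all 17268 genes tested. A call at a stage refers to the average over regimens unless a regimen is named. After ischemia alone 0 members were called, and also 0 by DESeq2, with 1 at an unadjusted p under 0.05, while 0.139% of all genes were called (0.0232% lower). At 3 h 8 members were lower, where 11.1% of all genes were lower. At 12 h 7 were lower and 1 higher, where 9.82% of all genes were lower and 11.7% higher. At 24 h 23 were lower and 0 higher, against 24.3% of all genes lower and 49.8% called in either direction. At 72 h 10 were lower, against 11% of all genes lower and 27.2% called in either direction. The median log2 fold change of the 33 members was 0.02, -0.26, -0.11, -0.52 and -0.27 at the successive stages, and that of all tested genes lay between -0.01 and 0.01. Members with a negative log2 fold change in all 4 regimens numbered 4, 8, 21 and 22 at 3, 12, 24 and 72 h. With the gene length offset described further on they numbered 10, 9, 18 and 18. The share of all genes with such a pattern is not given.

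**Figure D1:**
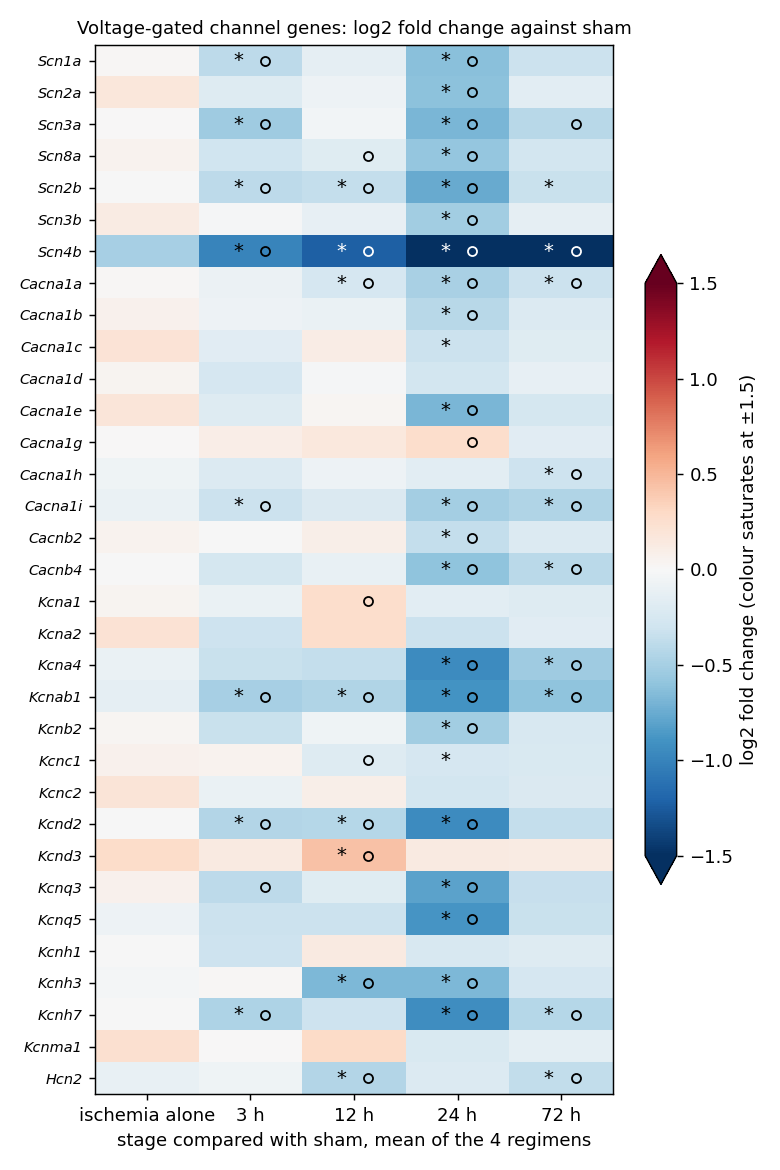
Log2 fold change of each of the 33 channel genes (rows) at 5 stages against sham (columns), averaged over the 4 regimens; the colour saturates at ±1.5, an asterisk marks an edgeR adjusted p under 0.05 and an open circle the same with a gene length offset. The 24 h column holds 23 asterisks, all on lower genes, and Scn4b is the darkest row.

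The counts at 3, 12 and 72 h moved when single libraries or the IF12 regimen were left out. The share of all genes called in the same fits is not given. These shifts are thus not shown to be particular to the members. The 3 h count was 0 without the IF12 regimen. It was 3 without replicate 1 of IF16 at 3 h, 4 without replicate 2 or 3 of EOD at 3 h, replicate 3 of IF12 at 3 h or replicate 2 of IF16 sham, and 5 without replicate 3 of AL sham, replicate 2 of IF12 sham or replicate 3 of IF16 sham. The 12 h count of 8 became 4 without replicate 3 of AL at 12 h and 5 without replicate 3 of EOD at 12 h, replicate 1 of IF12 at 12 h or replicate 3 of IF16 sham. The 72 h count of 10 became 5 without replicate 2 of EOD at 72 h, 16 without replicate 1 and 17 without replicate 3 of that group. The 24 h count stayed between 21 and 25 when any 1 library was left out, and was 15 without the IF12 regimen. The calls lost there were those of Kcnb2, Kcnc1, Cacna1b, Cacna1c, Cacna1e, Cacnb2, Scn2a and Scn3b (adjusted p = 0.0576 to 0.372). With both libraries that stood apart left out, the counts were 13, 6, 25 and 6 at 3, 12, 24 and 72 h.

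Of the sodium channel alpha subunits, all 4 fell at 24 h. Scn8a, the main sodium channel of mature initial segments and nodes of Ranvier, had a lowest, median and highest level of 289, 342 and 405 CPM in the 12 sham libraries and of 148, 241 and 362 CPM at 24 h. Of the 24 h libraries 10 lay below the lowest sham library. Its log2 fold change was -0.58 ± 0.12 (SE; edgeR adjusted p = 6.5e-05). Scn1a, which is prominent in inhibitory interneurons, fell by 0.63 on the log2 scale, and Scn2a, which serves excitatory neurons, by 0.62. Scn3a, a sodium channel most abundant before birth, had 23.7, 36.1 and 62.5 CPM in sham, 14, 25.4 and 45.8 CPM at 3 h and 16.6, 19.4 and 33.9 CPM at 24 h. The 3 h and sham libraries overlapped, with a log2 fold change of -0.53 ± 0.16 (adjusted p = 0.0164), and at 24 h it was -0.69 ± 0.17 (adjusted p = 0.000548). The 3 h call of Scn3a was lost without the IF12 regimen (adjusted p = 0.41).

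The sodium channel beta subunits held the largest change of any member. Scn4b (ENSMUSG00000046480, chr9:45138395-45154152, plus strand, GRCm38, GENCODE M21), which encodes an auxiliary subunit tied to resurgent sodium current and is abundant in the striatum, had a lowest, median and highest level of 128, 457 and 620 CPM in sham, 36.7, 163 and 548 CPM at 12 h, 38.1, 87.1 and 152 CPM at 24 h, and 19.5, 105 and 489 CPM at 72 h. Of the 12 libraries of a stage, 6 at 12 h, 11 at 24 h and 8 at 72 h lay below the lowest sham library. The log2 fold change was -0.99 ± 0.34 at 3 h (adjusted p = 0.0287, and 0.293 without the IF12 regimen), -1.23 ± 0.34 at 12 h (adjusted p = 0.00688), -2.33 ± 0.35 at 24 h (adjusted p = 4.26e-07) and -1.56 ± 0.34 at 72 h (adjusted p = 0.000411). Scn2b, whose product binds the alpha subunit covalently, was among the tightest genes in sham, with 347, 380 and 422 CPM, and had 180, 295 and 415 CPM at 3 h and 152, 220 and 318 CPM at 24 h. At 24 h the groups did not overlap, since all 12 libraries lay below the lowest sham library. Its log2 fold change was -0.39 ± 0.12 at 3 h (adjusted p = 0.0155) and -0.76 ± 0.12 at 24 h, but the 3 h call was lost without the IF12 regimen (adjusted p = 0.327). Scn3b fell by 0.52 at 24 h and was not called at the other stages.

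**Figure D2:**
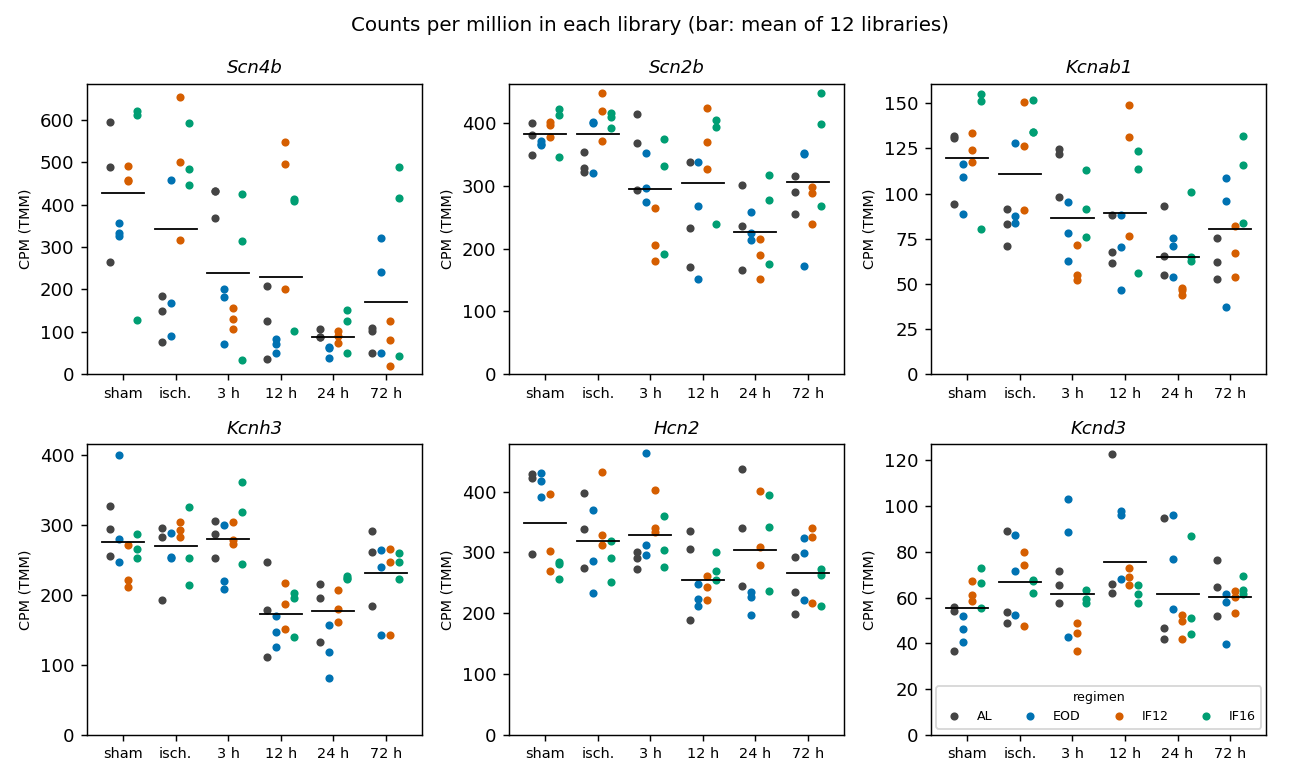
TMM-scaled CPM of 6 channel genes in each of the 72 libraries, by stage and coloured by regimen; the bar is the mean of the 12 libraries of a stage and every axis starts at 0. All 12 Scn2b points at 24 h lie below the sham points, Scn4b spreads widely within sham and 12 h, and Kcnd3 is higher at 12 h.

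The level of Scn4b moved with that of the striatal markers also among replicates of the same group. After subtraction of group means, its log2 level correlated with the log2 sum of the 9 medium spiny neuron markers at r = 0.95 over 72 libraries (rank correlation 0.96; both with a within-group permutation p of 1e-05, the smallest that 100000 permutations can give, and a Benjamini-Hochberg adjusted p of 0.000117 and 0.000112 over the 34536 relations of all tested genes with these markers and with the length trend described further on). Without the 2 libraries farthest from the median marker level r was 0.94. Replicate 1 of IF16 sham, for example, had 128 CPM of Scn4b and a marker sum of 843 CPM, and the other 2 libraries of that group had 611 and 620 CPM with sums of 2976 and 3566 CPM. Averaged over regimens, the medium spiny neuron markers were lower at every reperfusion stage. Of these 9 markers, 6 were called at 3 h and 9 at 12, 24 and 72 h. The shares of all genes lower there were 11.1%, 9.82%, 24.3% and 11%. Their median log2 fold change at 24 h was -2.71. The size of the fall differed between AL, EOD, IF12 and IF16. The medians were -0.23, -1.14, -1.64 and -1.01 at 3 h, and -2.06, -0.66, -2.94 and -0.68 at 72 h. Of the 33 members 10 passed with a positive coefficient, where 9.02% of all tested genes did, and 1, Kcnd3, with a negative one, where 7.77% did. The next highest coefficients were those of Cacna1i at 0.68 and Kcnh1 at 0.63. How far striatal content contributed to the falls was not tested.

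Of the calcium channel alpha subunits, 5 of 8 fell at 24 h. Cacna1a, the pore of P/Q-type channels at fast synapses, had 186, 226 and 279 CPM in sham and 102, 148 and 272 CPM at 24 h. All but 2 of the 24 h libraries were below the sham range. Its log2 fold change was -0.25 ± 0.09 at 12 h, -0.48 ± 0.09 at 24 h (adjusted p = 2.75e-05) and -0.33 ± 0.09 at 72 h. The 12 h call (adjusted p = 0.0463) was lost with RLE scaling, without the low-count filter and without the 2 libraries that stood apart (adjusted p = 0.0508 to 0.0659). Cacna1b, the N-type pore, fell by 0.42 at 24 h, Cacna1e, the R-type pore, by 0.68, and the L-type pore gene Cacna1c by 0.33. The call of Cacna1c was lost also when an offset took out each library's trend on the gene length behind the FPKM values (adjusted p = 0.0903). With the length taken from the longest transcript or the genomic span, its log2 fold change was -0.023 and 0.013. Cacna1d, the second L-type gene, was not called at any stage, with a log2 fold change of -0.27 ± 0.13 at 24 h.

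The low-threshold T-type genes differed in their values. Cacna1i had 158, 185 and 223 CPM in sham, 93.4, 124 and 223 CPM at 24 h and 90.5, 128 and 218 CPM at 72 h, and 10 of 12 libraries at both stages lay below the sham range. It was called at 3 h, 24 h and 72 h, with log2 fold changes of -0.33 ± 0.12, -0.51 ± 0.12 and -0.45 ± 0.12 (adjusted p = 0.0403, 0.000354 and 0.003). The 3 h call was lost without the IF12 regimen (adjusted p = 0.314) and under 3 variants of the length offset (adjusted p = 0.0546 to 0.206). Cacna1h was called only at 72 h (-0.31 ± 0.11, adjusted p = 0.026), a call lost with the longest-transcript offset (adjusted p = 0.0715) and without the 2 libraries that stood apart (adjusted p = 0.0602). Cacna1g was not called at any stage. Its value at 24 h was 0.26 ± 0.14 (adjusted p = 0.119) and passed the test with the length offset, at 0.43 (adjusted p = 0.00764). Both calcium channel beta subunits, which traffic the pores to the membrane, fell at 24 h. Cacnb4 had 109, 132 and 173 CPM in sham and 63.7, 84.1 and 155 CPM at 24 h, with 11 of 12 libraries below the sham range and a log2 fold change of -0.60 ± 0.13 (adjusted p = 0.000244), and Cacnb2 fell by 0.35, which became -0.076 with the genomic span offset (adjusted p = 0.517).

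Among potassium channels, the A-type genes gave falls together with the only rise. Kcna4, which makes fast-inactivating axonal channels, had 23.1, 28.3 and 43.3 CPM in sham and 7.53, 12.3 and 24.4 CPM at 24 h, a log2 fold change of -0.95 ± 0.18 (adjusted p = 1.99e-05), and 10 of 12 libraries lay below the sham range. Kcnd2, a pore of the somatodendritic A-type current, had 86.6, 109 and 141 CPM in sham and 30.7, 57.5 and 102 CPM at 24 h. This was a log2 fold change of -0.94 ± 0.15 (adjusted p = 1.52e-06), with 11 of 12 libraries below the sham range, and Kcnd2 was also called lower at 3 h and 12 h. Its 3 h call was lost without the IF12 regimen (adjusted p = 0.477).

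Kcnd3 (ENSMUSG00000040896, chr3:105452330-105674002, plus strand), the related pore that shares this current, was the only member called higher in any stage contrast. It had 36.5, 55.8 and 72.9 CPM in sham and 57.7, 67 and 123 CPM at 12 h, so the groups overlapped. Its log2 fold change at 12 h was 0.44 ± 0.13 (adjusted p = 0.0137), and it was 0.28, 0.13, 0.14 and 0.13 at the other stages without a call. By regimen the 12 h means were 83.5 ± 34 in AL, 87.5 ± 16.8 in EOD, 69.2 ± 3.62 in IF12 and 61.7 ± 3.93 CPM in IF16 (SD, n = 3), against sham means of 48.9 ± 10.8, 46.3 ± 5.75, 62.4 ± 4.37 and 64.9 ± 8.74 CPM. The highest 12 h value, 123 CPM, was replicate 3 of AL, and without it the adjusted p was 0.0649. Kcnd3 correlated negatively with the medium spiny neuron markers within groups (r = -0.40, permutation test adjusted over all genes, p = 0.0145; rank correlation -0.38, adjusted p = 0.015; r = -0.42 without the 2 farthest libraries).

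The promoter windows of the gene with the deepest fall, the gene with the rise and a strongly falling A-type gene are shown to set sequence beside response. They are RefSeq windows of GRCm38.p6, from 250 bases before to 50 bases after the start, written 5′ to 3′ in the direction of the gene, for Scn4b (chr9:45138374-45138673, plus strand), Kcnd3 (chr3:105451640-105451939, plus strand) and Kcna4 (chr2:107290339-107290638, plus strand). The RefSeq starts used for these windows differ from the GENCODE gene starts. The Kcnd3 and Kcna4 windows end before those gene starts (105452330 and 107290639), and the Scn4b window contains its own (45138395). Capitals mark matches on either strand to the GC box GGGCGG.
Scn4b: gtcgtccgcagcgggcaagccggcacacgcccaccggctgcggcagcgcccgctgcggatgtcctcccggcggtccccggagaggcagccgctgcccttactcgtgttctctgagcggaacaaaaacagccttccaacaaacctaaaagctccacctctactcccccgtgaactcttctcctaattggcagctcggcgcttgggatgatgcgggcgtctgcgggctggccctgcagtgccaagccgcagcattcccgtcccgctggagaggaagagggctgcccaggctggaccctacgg
Kcnd3: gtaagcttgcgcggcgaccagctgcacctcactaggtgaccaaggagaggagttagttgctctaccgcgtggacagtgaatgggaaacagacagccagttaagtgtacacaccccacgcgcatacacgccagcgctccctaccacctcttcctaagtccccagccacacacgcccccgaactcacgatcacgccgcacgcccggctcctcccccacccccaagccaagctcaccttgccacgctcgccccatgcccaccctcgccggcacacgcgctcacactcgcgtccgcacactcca
Kcna4: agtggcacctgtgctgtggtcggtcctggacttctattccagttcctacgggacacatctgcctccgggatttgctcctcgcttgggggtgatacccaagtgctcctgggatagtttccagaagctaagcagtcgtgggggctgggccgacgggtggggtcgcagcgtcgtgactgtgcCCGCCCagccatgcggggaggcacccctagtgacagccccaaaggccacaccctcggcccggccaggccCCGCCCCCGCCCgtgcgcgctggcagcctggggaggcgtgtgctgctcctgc
Kcna4 held 3 GC boxes, 2 of which adjoin, and Scn4b and Kcnd3 held none, although their GC contents were 66.3% and 64%. Windows were found for 24 of the 33 members. Their median GC content was 60.3%, against 52.7% for all windows, and how far this entered the motif shares was not tested. A GC box was present in 15 of their 38 windows (39.5%) and in 35.7% of all 32851 windows. The cyclic AMP response element TGACGTCA and the AP-1 motif TGANTCA were in 0 of the 38 windows of members and in 1.79% and 7.81% of all windows. The TATAAA box was in 3 windows of members (7.89%) and in 13.6% of all windows. The E-box CACGTG was in 2 (5.26%), both of Kcnab1, and in 7.15% of all windows. The left part TTCAGCACC of the RE1 element, which the neuronal repressor REST binds, and its right part were in 0 windows of members and in 0.371% and 0.137% of all windows.

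Kcnab1, the cytoplasmic beta subunit that confers inactivation on Kv1 channels, was called at every reperfusion stage. It had 80.5, 121 and 155 CPM in sham, 52.1, 84.6 and 125 CPM at 3 h, 43.8, 63.8 and 101 CPM at 24 h and 37, 78.8 and 132 CPM at 72 h. The groups overlapped at each stage, with 10 of 12 libraries below the sham range at 24 h. The log2 fold change was -0.50 ± 0.14 at 3 h, -0.45 ± 0.14 at 12 h, -0.90 ± 0.14 at 24 h and -0.60 ± 0.14 at 72 h (adjusted p = 0.00821, 0.0182, 1.27e-06 and 0.00112), and the 3 h call was lost without the IF12 regimen (adjusted p = 0.267). Kcna1 and Kcna2, the axonal delayed rectifiers that it can partner, were not called at any stage in the average over regimens. Their log2 fold changes were -0.15 ± 0.11 and -0.32 ± 0.18 at 24 h. Kcna2 was called within IF12 at 3 h, as described further on.

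Of the delayed rectifiers, Kcnb2 had 11.9, 17 and 22.5 CPM in sham and 8.33, 10.7 and 17.6 CPM at 24 h, a log2 fold change of -0.52 ± 0.15 (adjusted p = 0.00265). This call was lost without the IF12 regimen (adjusted p = 0.114) and with the longest-transcript offset (-0.17, adjusted p = 0.0743). Kcnc1, a Kv3 channel that lets fast-spiking neurons repolarize quickly, had 258, 312 and 360 CPM in sham and 221, 253 and 306 CPM at 24 h, a log2 fold change of -0.26 ± 0.09 (adjusted p = 0.0156), which was not called with the length offset (adjusted p = 0.0904), with the longest-transcript offset (-0.075, adjusted p = 0.464) or without the IF12 regimen (adjusted p = 0.0675). The related Kcnc2 was not called (-0.27 ± 0.13 at 24 h). The M-current genes, which damp repetitive firing, both fell at 24 h. Kcnq5 had 51, 69.3 and 104 CPM in sham and 22.1, 38.8 and 62.8 CPM at 24 h, with a log2 fold change of -0.89 ± 0.15 (adjusted p = 4.44e-06) and 9 of 12 libraries below the sham range. Kcnq3 fell by 0.80.

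The ether-à-go-go relatives followed separate courses. Kcnh3 (ENSMUSG00000037579, chr15:99224861-99242817, plus strand), a subthreshold potassium channel of forebrain neurons, had 211, 268 and 399 CPM in sham, 209, 283 and 361 CPM at 3 h, 111, 174 and 247 CPM at 12 h and 81.8, 188 and 227 CPM at 24 h. It was at its sham level at 3 h (0.02 ± 0.12), ranked first among the members at 12 h (-0.68 ± 0.12, adjusted p = 5.34e-05) with 10 of 12 libraries below the sham range, and was lower again at 24 h (-0.67 ± 0.12, adjusted p = 6.72e-06). Kcnh7, an ERG-type channel, had 57, 70 and 90.1 CPM in sham and 22.4, 35.6 and 52.1 CPM at 24 h, so the groups did not overlap. Its log2 fold change at 24 h was -0.94 ± 0.17 (adjusted p = 8.93e-06), and it was also called at 3 h and 72 h. Both of those calls were lost without the IF12 regimen (adjusted p = 0.309 and 0.366) and with the longest-transcript offset (adjusted p = 0.113 and 0.11), and the 72 h call also under 4 other settings (adjusted p = 0.0513 to 0.1). Kcnh1 was not called at any stage.

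Hcn2 had 256, 347 and 430 CPM in sham, 188, 251 and 335 CPM at 12 h, 197, 295 and 437 CPM at 24 h and 199, 267 and 340 CPM at 72 h, overlapping at each stage. It was called at 12 h (-0.44 ± 0.10, adjusted p = 0.00193) and at 72 h (-0.37 ± 0.10, adjusted p = 0.00529) but had a log2 fold change of -0.20 ± 0.10 at 24 h (adjusted p = 0.1). At 24 h it passed the test with the genomic span offset (-0.23, adjusted p = 0.048) and without replicate 2 of AL at 24 h (adjusted p = 0.0437). Kcnma1, the large-conductance channel opened jointly by voltage and calcium, had 35.3, 69.9 and 108 CPM in sham and 30, 56.1 and 121 CPM at 24 h and was not called at any stage (-0.22 ± 0.19 at 24 h).

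Other genes of the same systems were examined from lists. Of 71 further voltage-gated channel genes and accessory subunits, 66 were tested, and at 24 h 23 were lower and 6 higher with a median log2 fold change of -0.15, where 24.3% of all genes were lower and 25.4% higher. Kcnh4, an ELK-type relative of Kcnh3, fell from 29.4 ± 9 CPM in sham to 10.1 ± 4.17 CPM (SD, n = 12), a log2 fold change of -1.60 ± 0.23 (adjusted p = 2.58e-07). Kcnip2, a calcium-sensing partner of the A-type pores Kcnd2 and Kcnd3, fell from 194 ± 25.7 to 83.3 ± 27.7 CPM (-1.24 ± 0.15, adjusted p = 5.15e-09). Kcnq1, chiefly an epithelial and cardiac channel, rose from 0.636 to 1.66 CPM, and Kcnn4, a calcium-activated channel of blood and microglial cells, from 0.399 to 0.903 CPM at 24 h. At 3 h the largest called change in this list was Kcne4, an accessory subunit, which rose from 1.42 ± 0.613 to 5.04 ± 2.51 CPM (1.83 ± 0.26, adjusted p = 4.97e-07).

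Of 19 genes of the axon initial segment and node of Ranvier, where sodium and M-current channels are anchored, 14 were lower and 0 higher at 24 h, with a median of -0.45. Adam23 and Adam22, partners of the secreted protein Lgi1 near Kv1 channels, fell by 0.81 and 0.73, and Cntnap1, which forms the paranodal junction, by 0.72. Of 20 inward rectifier and leak potassium channel genes 11 were lower and 2 higher, with a median of -0.28. Kcnk2, a mechanosensitive leak channel, fell from 124 ± 24.7 to 63.5 ± 14 CPM (-0.97 ± 0.14, adjusted p = 1.3e-07), whereas Kcnj8, a pericyte channel, rose from 5.3 ± 1.03 to 8.54 ± 2.17 CPM (0.70 ± 0.14). For comparison, 9 of 12 general neuron markers were lower at 24 h with a median of -0.38, and 10 of 10 markers of infiltrating or activated myeloid cells were higher with a median of 3.68. Their summed level ran from 15.7 to 25.8 CPM in sham and from 54 to 555 CPM at 24 h. The part of these shifts in cell makeup in the channel values was not tested.

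The members are long genes, and long transcripts as a class moved between libraries. The length behind the deposited FPKM values ran from 2081 to 9404 bases over the members with a median of 4675, against 1932 over all tested genes, and 24 of 33 members lay in the longest of 5 length classes of equal size. This length lay within 1% of the mean length of the annotated transcripts for 65.5% of 28031 genes and for 15 of the members. Over the 17117 other tested genes with an annotated longest transcript, the log2 fold change correlated with length at a Spearman's rho of 0.13, -0.16, 0.08, -0.18 and -0.15 at the successive stages. These coefficients are across genes, which are not independent replicates. At 24 h the median log2 fold change was 0.12 in the shortest class of the other genes and -0.11 in the longest, while the median of the members was -0.52. With each library's fitted trend on this length taken out by an offset, 9 members were lower at 3 h, 9 at 12 h, 21 at 24 h and 10 at 72 h, where 11.4%, 10.6%, 24.3% and 11.2% of all genes were lower. With it 2 were higher at 12 h and 1 at 24 h, where 13.4% and 25.9% of all genes were higher. After the offset the 24 h log2 fold change still correlated with longest transcript length at a rho of -0.05 and with genomic span at -0.08. The median of the members at 24 h became -0.42 with this offset. With offsets chosen after seeing the data it was -0.29 by longest transcript and -0.37 by genomic span.

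**Figure D3:**
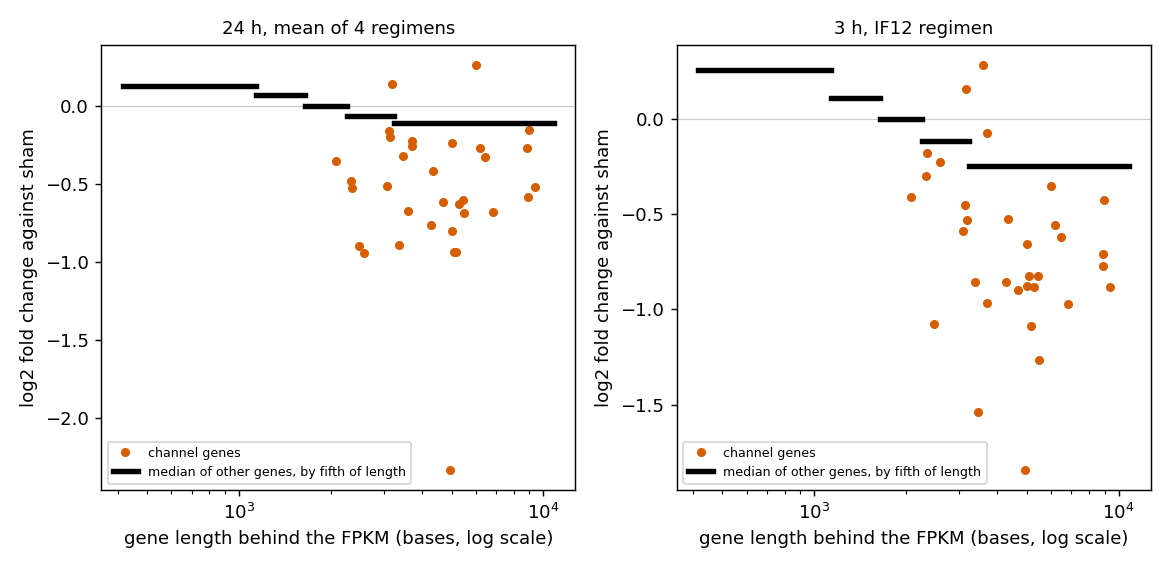
Log2 fold change against sham of the 33 channel genes (points) by the gene length behind the deposited FPKM values (log axis), for 24 h averaged over regimens and for IF12 at 3 h; the bars are medians of all other tested genes in 5 classes of equal size by length, drawn only over the range shown. The bars step down with length in both panels, and most points lie below the bar of their own length.

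The length trend differed from library to library and the channel genes went with it. For each library the trend was taken as Spearman's rho between length and the log2 deviation of each gene from its mean over all libraries, with the members left out, and it ran from -0.42 to 0.39. The median deviation of the 33 members correlated with it at r = 0.83 and rho = 0.88 over 72 libraries, at r = 0.82 without the 2 libraries farthest from the median trend, and at r between 0.70 and 0.97 within the 6 stages (n = 12 each), as a description. Within groups 31 of 33 members had a positive coefficient, as did 49.5% of all tested genes. In the within-group permutation test with adjustment over the relations of all tested genes, 27 members passed with a positive and 1 with a negative coefficient, where 22.2% and 21.5% of all genes did. Of the other genes in the longest length class 1714 of 3429 passed with a positive coefficient. Kcnma1 had the highest (r = 0.89, rank correlation 0.89, both permutation p = 1e-05, the smallest possible, and adjusted p = 0.000117 and 0.000112; r = 0.87 without the 2 farthest libraries). Hcn2 had a negative one (r = -0.60, adjusted p = 0.000357; rank correlation -0.56, adjusted p = 0.000471; r = -0.57 without the 2 farthest libraries), and Scn4b had r = 0.13 (adjusted p = 0.536).

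**Figure D4:**
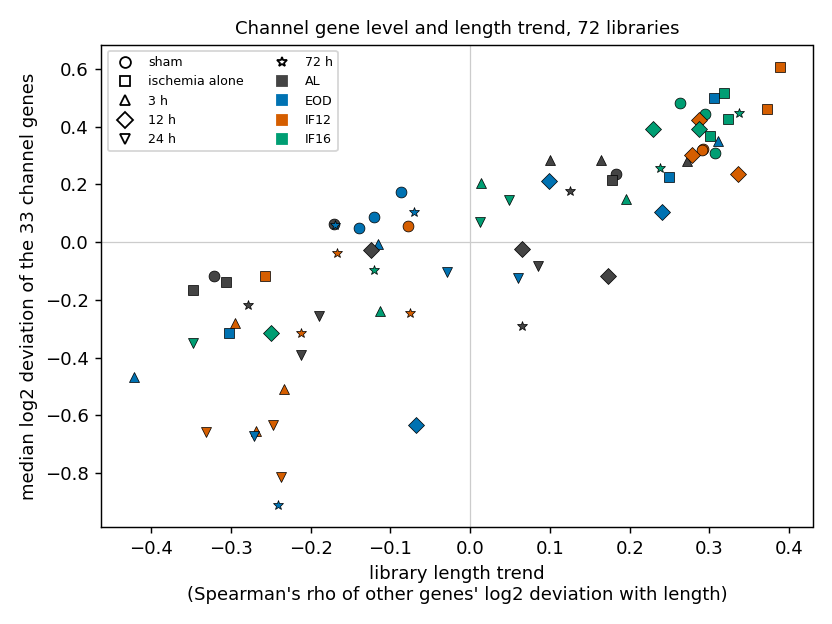
Median log2 deviation of the 33 channel genes from their means over all libraries, against the length trend of the other genes, in 72 libraries marked by stage (shape) and regimen (colour). Libraries with a trend above 0 mostly hold the channel genes above their mean, and the 3 IF12 libraries at 3 h and the 3 at 24 h sit at the lower left.

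The feeding regimens were compared at each stage and in their response to stroke. With all 72 libraries in the fit, no member was called by edgeR for a difference of the stroke response between the 4 regimens (an interaction test with 3 degrees of freedom). The count was 0 after ischemia alone and at 3, 12, 24 and 72 h, where 0%, 0.0174%, 0%, 0% and 0% of all genes were called. At an unadjusted p under 0.05 there were 0, 13, 3, 7 and 0 members, and DESeq2 called 0, 2, 0, 1 and 0. An edgeR fit of only the groups compared called 6 members at 3 h, where it called 2.95% of all genes. For any difference between regimens within a stage the count was likewise 0 at all 6 stages (sham, ischemia alone, then 3 to 72 h), where 0.029%, 0%, 1.91%, 0.197%, 1.97% and 4.87% of all genes were called. There 6, 4, 20, 7, 12 and 5 members reached an unadjusted p under 0.05. The counts by DESeq2 were 0, 0, 1, 2, 2 and 0. Averaged over stages, EOD, IF12 and IF16 differed from AL in 0 members each, with 0%, 0% and 0.00579% of all genes called, 1, 0 and 15 members at an unadjusted p under 0.05, and 0 by DESeq2. The shares of all genes given here are by edgeR adjusted p. No share is given at an unadjusted p or by DESeq2, so the counts of members by those criteria stand without a background.

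The number of members called within a single regimen, 3 libraries against 3, nevertheless varied. At 24 h 1 member was lower in AL, 7 in EOD, 24 in IF12 and 2 in IF16, where 3.42%, 7.26%, 16.4% and 6.57% of all genes were lower. The median log2 fold changes were -0.28, -0.45, -0.92 and -0.45, and the test of the difference between regimens had called none. In AL the called member was Scn4b, and in IF16 they were Scn4b and Scn3a. At 12 h EOD had 3 lower members, Scn4b, Kcnh3 and Hcn2, and 1 higher, Kcnd3, with 2.82% of all genes lower and 2.93% higher. At 72 h AL had 3 lower members and IF12 3, with 0.747% and 6.03% of all genes lower. The AL count at 24 h was 0 without replicate 1 or 3 of AL sham or replicate 2 of AL at 24 h, and 2 without replicate 1 of AL at 24 h. The IF16 count at 24 h was 9 without replicate 3, 0 without replicate 1 or 2 of IF16 at 24 h, and 4, 1 and 0 without replicates 1, 2 and 3 of IF16 sham. The AL count at 72 h was 0 without replicate 1 of AL sham or replicate 3 of AL at 72 h and 1 without replicate 3 of AL sham or replicate 1 or 2 of AL at 72 h, and the IF12 count at 72 h was 0 and 5 without replicates 2 and 1 of IF12 at 72 h. The IF12 count at 24 h was 15 without replicate 1 of IF12 at 24 h. No share of all genes is given beside the counts with a library left out in this paragraph. With the length offset, the 24 h counts were 3 in AL, 13 in EOD, 18 in IF12 and 2 in IF16, of which 1 in EOD and 1 in IF16 were higher. Of all 17268 genes, 715, 1467, 2582 and 991 were lower with it. With the longest-transcript offset the counts of members were 3, 12, 13 and 2. Without the 2 libraries that stood apart they were 6, 10, 26 and 8, and with only the groups compared 5, 5, 26 and 5. The shares of all genes under these last settings are not given. The EOD count at 24 h was 4 without replicate 3 of EOD at 24 h or replicate 3 of EOD sham. The EOD count at 12 h was 0 without replicate 3 of EOD at 12 h or replicate 3 of EOD sham, 1 without replicate 2 of either group and 2 without replicate 1 of EOD sham.

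At 3 h the members had median log2 fold changes of 0.20 in AL, -0.09 in EOD, -0.71 in IF12 and -0.38 in IF16. In IF12 16 members were lower, where 11.2% of all genes were lower. In AL, EOD and IF16 0 were called by edgeR, where only 0.0347%, 0.0927% and 3.12% of all genes were lower. The fewer calls there were thus not particular to the members. Those regimens held 1, 2 and 6 members at an unadjusted p under 0.05, and 0, 0 and 1 by DESeq2. Kcna2 led in IF12. Its levels in the 3 replicates were 34.8, 53.1 and 47.8 CPM in IF12 sham and 19.1, 14.3 and 13.3 CPM at 3 h, and 20.7, 30.2 and 41 CPM in AL sham and 48.4, 46.4 and 46.9 CPM at 3 h. All 3 IF12 libraries at 3 h lay below every sham library of IF12, and all 3 AL libraries lay above those of AL sham. The log2 fold change was -1.54 ± 0.38 in IF12 (adjusted p = 0.00386) and 0.62 ± 0.37 in AL (adjusted p = 0.471). The test of any regimen difference at 3 h gave Kcna2 an adjusted p of 0.0501, and the interaction test 0.0865. Scn3a was 30.9, 56.1 and 48.8 CPM in IF12 sham and 17.7, 19.5 and 19.4 CPM at 3 h (-1.26 ± 0.33, adjusted p = 0.00685), without overlap. Kcnab1 was 118, 124 and 134 CPM and then 71.3, 52.1 and 54.8 CPM (-1.07 ± 0.29, adjusted p = 0.00724), also without overlap.

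**Figure D5:**
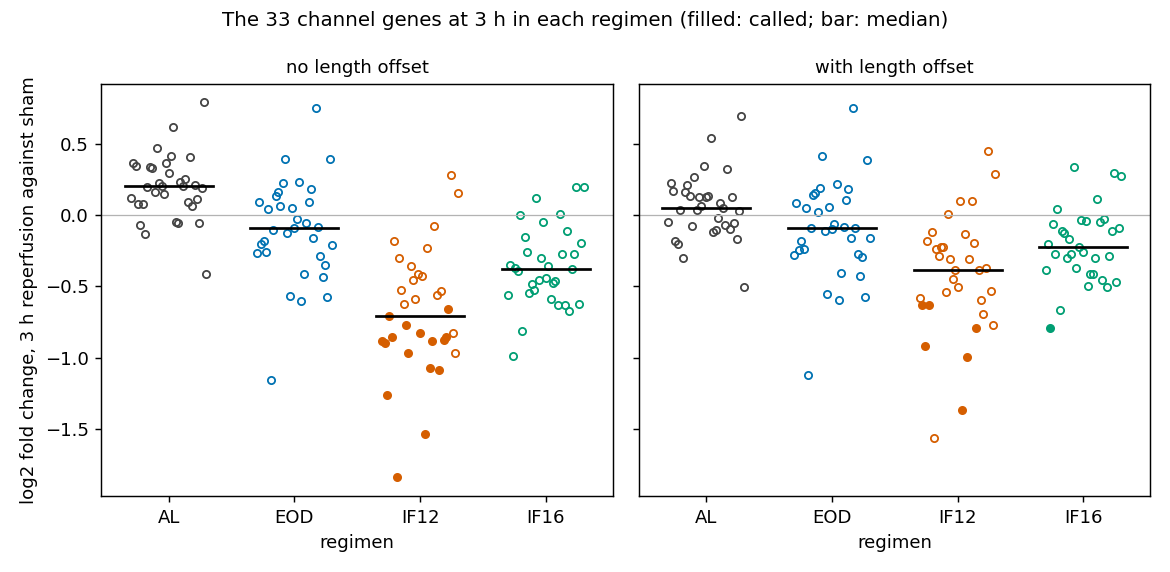
Log2 fold change of the 33 channel genes at 3 h of reperfusion against sham in each regimen, without (left) and with (right) the gene length offset; filled points have an edgeR adjusted p under 0.05 and the bar is the median. The IF12 median is -0.71 without the offset and -0.38 with it, and the filled IF12 points go from 16 to 6.

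Among the 18 comparisons of a fasting regimen with AL within a stage, members were called in 1, IF12 against AL at 3 h, which is described here after its values were seen. There 14 members were lower and 0 higher, with a median of -0.73, where 5.93% of all genes were lower, 3.48% higher and 9.41% called in either direction. In the other 17 comparisons 0 members were called. Of these, IF16 against AL at 72 h had 3.31% of all genes called, IF12 against AL 0.278% at 24 h and 0.0927% at 12 h, and each of the others at most 0.0347%. The IF12 count was 0 without replicate 1 or 3 of AL at 3 h or replicate 2 or 3 of IF12 at 3 h, 7 without replicate 1 of IF12 and 8 without replicate 2 of AL. For the fits with a library left out, here and below, the share of all genes called is not given. Both this count and the IF12 response moved with gene length. The 3 IF12 libraries at 3 h had length trends between -0.30 and -0.23, and the 3 AL libraries between 0.10 and 0.27, so the trends of the groups did not overlap. With the length offset 3 members were called in IF12 against AL (Kcna2, Kcnq5 and Kcnab1), where 3.1% of all genes were lower, and 6 in the IF12 response, where 9.24% were lower. Across genes, the log2 fold change of IF12 against AL after this offset still had a rho of -0.10 with longest transcript length. With genomic span it was -0.14. The IF12 response at 3 h called 3 members without replicate 3 and 6 without replicate 2 of IF12 at 3 h, and 4 and 5 without replicates 2 and 3 of IF12 sham. In that response 0 of 12 neuron markers were called (median 0.12, summed level 7897 to 9572 in sham and 8044 to 9263 CPM at 3 h) and 2 of 9 medium spiny neuron markers were lower (median -1.64, 2352 to 2476 in sham and 767 to 1061 CPM at 3 h). What the length trend of a library reflects was not tested.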

How the data were processed

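The authors deposited a table of raw read counts per Ensembl gene and a matching table of FPKM values (fragments scaled by gene length and library size). The submitters' processing notes name CASAVA, TopHat2 and DESeq2 and the builds GRCm38 and mm10. Not given in the sources used here: tool versions, gene models, the counting rule and strand use. Counts were tested as deposited, and the FPKM table served only to derive gene length.

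Genes were filtered with filterByExpr, scaled by TMM and fitted in edgeR 4.0.16 (R 4.3.3) by quasi-likelihood over all 72 libraries with a mean for each of the 24 groups, and p-values were adjusted over all 17268 genes by Benjamini-Hochberg. SE is the log2 fold change divided by the root of F. The length offset was a lowess curve (span 0.3) of each library's log2 deviations on log2 length. Relations within groups were tested by permuting libraries within groups, for all tested genes. Procedures were tested on simulated data. For the 24 h stage contrast simulated without a length trend, false calls numbered 6 without and 5 with the length offset. With a simulated length trend they numbered 499 without and 5 with the offset. In that simulation the 24 h libraries were given a falling trend on length and the others none on average. The observed trends overlapped, with rho from -0.32 to 0.31 in sham and from -0.35 to 0.09 at 24 h. Counts without the offset can include false calls where a stage carries such a trend, but their number in these data was not estimated. Alternatives were RLE scaling, DESeq2 1.42.0, no low-count filter, only the groups compared, length offsets, a replicate block and leaving out each library.

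The members and lists were chosen with earlier results of these data known. Values are written out for the first 3 called members by adjusted p in each stage contrast, the first member of each subfamily at 24 h and each member called higher, and for other members where their role is described. Outside the members, at most 5 called genes per list and stage are named by size of change. Precision depended on the spread between the 3 libraries of a group as well as on library totals of 16735707 to 24763161 counts.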

Additional observations from a re-analysis of the deposited data

How the results depend on the processing

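Counts of called members by edgeR moved by over 1.5 times under these alternatives. The share of all genes called is not given beside each. The stage count at 3 h (8) was 5 with the longest-transcript offset, 15 with only the groups compared, 13 without the 2 libraries that stood apart and 0 without the IF12 regimen. At 24 h (23) it was 15 without IF12, and at 72 h (10) it was 6 without the 2 libraries and 6 without IF12. The interaction count at 3 h was 6 with only the groups compared and 2 with DESeq2, and at 24 h 1 with DESeq2. The count for any regimen difference (0) was, at 3 h, 1 with RLE scaling, no low-count filter, the length offset, the replicate block, the replicate block with length offset, the longest-transcript offset and DESeq2, and 3 without the 2 libraries. At 12 h it was 2 with DESeq2. At 24 h it was 1 with the longest-transcript and the genomic span offset, 4 without the 2 libraries and 2 with DESeq2, and at 72 h 3 without the 2 libraries. The average IF16 effect had 4 without the 2 libraries. Summed over the 5 stages, AL (4) had 2 with the replicate block, 7 with the longest-transcript offset, 10 without the 2 libraries, 7 with only the groups compared and 9 with DESeq2. EOD (11) had 20 with the length offset, 19 with block and offset, 20 with the longest-transcript offset and 5 with only the groups compared. IF12 (43) had 27, 26 and 21 with the length offset, block and offset, and longest-transcript offset. IF16 (2) had 1 with the replicate block, 4 with the genomic span offset, 9 without the 2 libraries, 6 with only the groups compared and 4 with DESeq2. The cause of these shifts was not tested.

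Leaving out 1 library gave 3 to 12 members at 3 h, 4 to 9 at 12 h, 21 to 25 at 24 h and 5 to 17 at 72 h. The share of all genes is not given for these fits either. The interaction at 3 h had 0 to 2, regimen differences at 3, 12, 24 and 72 h 0 to 2 each, the average IF16 effect 0 to 1, and the sums 0 to 9 in AL, 4 to 12 in EOD, 23 to 45 in IF12 and 0 to 9 in IF16. Kcnma1 at 24 h, not called, changed sign from -0.22 to 0.067 with the longest-transcript offset, 0.15 with the genomic span offset and 0.063 without IF12. Offsets by longest transcript and span, and both omissions of several libraries, were chosen after seeing the data. Replicate numbers did not pair the samples: over 60 same-numbered pairs of sham and stage libraries the correlation of deviations ran from -0.53 to 0.41 with a median of 0.01, and 26 of 60 libraries correlated best with their own number.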
